A study of Rattus norvegicus with 6 samples.

Results

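The miR-29 family of the rat liver was described here by its 3 mature members, rno-miR-29a-3p, rno-miR-29b-3p and rno-miR-29c-3p, named without the species prefix from here on. They were taken from 6 small RNA libraries of liver tissue, from 3 male Wistar rats with nonalcoholic fatty liver disease (NAFLD) and 3 normal male Wistar rats, labelled as 4 months old. The authors describe the rats as older than these labels state. The NAFLD rats were fasted for 48 h and then fed a diet with 80% starch, the normal rats were fed a standard diet with 35% starch, and the livers were taken at the end of 7 days. No fasting is described for the normal rats, so fasting, diet and disease cannot be told apart. Livers with more triglyceride were picked for the NAFLD group, and normal livers were picked by chance. A member was counted as all tags, meaning distinct read sequences, whose first 18 bases equal those of its mature sequence. This gave 219 tags with 214420 reads, of 1528721 tags in all, and 3 rows of the 682 that mature rat miRNAs with different first 18 bases form, 368 of which had at least 1 read. The 3 members have different 18-base starts, so none had to be reported together. Levels are in TPM, here a share of the library's clean reads scaled to 1000000.

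The miR-29 family is known for holding down extracellular matrix. Its members pair with the messenger RNAs of fibrillar collagens and other matrix proteins, and in the liver its loss from hepatic stellate cells, the collagen-producing cells, is a known part of fibrosis. A miRNA finds its targets mainly by its seed, bases 2 to 8 from the 5′ end. The RefSeq sequences (GRCr8) are given with the seed in capitals, since the members share it and differ only downstream of it.
miR-29a-3p: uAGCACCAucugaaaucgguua
miR-29b-3p: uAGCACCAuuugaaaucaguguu
miR-29c-3p: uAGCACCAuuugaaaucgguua
No other mature rat miRNA in the RefSeq table has this seed. With positions counted from 1 at the 5′ end and bases written as in the sequenced DNA, miR-29c-3p differs from miR-29a-3p by C10T alone over the whole mature sequence. Within the first 18 bases miR-29b-3p differs from miR-29a-3p by C10T and G18A, and miR-29c-3p from miR-29b-3p by A18G.

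The members come from 4 hairpins in 2 clusters of the GRCr8 build. Mir29a (chr4:60617955-60618042) and Mir29b1 (chr4:60618334-60618414) lie on the minus strand of chromosome 4 with 291 bases between them. Mir29b2 (chr13:109098831-109098911) and Mir29c (chr13:109099359-109099446) lie on the plus strand of chromosome 13 with 447 bases between them, both within the long noncoding RNA gene LOC102550527. The miRNA genes Mir3556a, Mir3587 and Mir3556b overlap Mir29a, Mir29b1 and Mir29c. Since miR-29b-3p is cut from both Mir29b1 and Mir29b2, these hairpins are given with their mature arms in capitals to show the base that follows the shared 3′ arm.
Mir29b1: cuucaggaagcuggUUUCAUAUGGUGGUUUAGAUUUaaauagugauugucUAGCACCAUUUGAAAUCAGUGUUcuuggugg
Mir29b2: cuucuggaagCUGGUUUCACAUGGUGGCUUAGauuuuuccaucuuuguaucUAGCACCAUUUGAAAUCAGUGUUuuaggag

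The libraries held 11601058 to 11880695 clean reads, of which 75.7% to 79.2% started as a mature miRNA in the NAFLD group and 85.7% to 91.3% in the normal group. miR-122-5p, the defining miRNA of hepatocytes, took 44.5% to 46.5% of the clean reads in the NAFLD group and 56.1% to 59.6% in the normal group. TPM is a share, so what miR-122-5p does not take goes to other reads. The other miRNAs took 29.8% to 32.7% of the clean reads in the NAFLD group and 26.9% to 31.7% in the normal group, which overlapped, and reads that did not start as a mature miRNA took 20.8% to 24.3% and 8.74% to 14.3%. The libraries also fell into 2 sets by the rate of base substitutions at read position 4, whose median over abundant tags was 0.0407% to 0.044% in NAFLD 1, normal 1 and normal 3 and 0.899% to 1.03% in NAFLD 2, NAFLD 3 and normal 2. These are called the low-rate and the high-rate libraries. Each set holds libraries of both groups, and the miR-29 tags were not used to divide them.

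By exact 18-base starts, the family was abundant and the NAFLD group did not stand apart from the normal group for any member. miR-29a-3p ranked 8th among the miRNAs by mean TPM, miR-29c-3p 36th and miR-29b-3p 66th. miR-29a-3p had 4693, 1737 and 1866 TPM in NAFLD 1, 2 and 3 and 3858, 1165 and 3814 TPM in normal 1, 2 and 3. The groups overlapped, with NAFLD 1 highest, normal 2 lowest and the 3 low-rate libraries above the 3 high-rate ones.
miR-29c-3p, the near copy of miR-29a-3p, had 252, 85.6 and 94.6 TPM in NAFLD 1, 2 and 3 and 207, 62.8 and 206 TPM in normal 1, 2 and 3. miR-29b-3p, the rarest member, had 49.6, 18.7 and 18.96 TPM in NAFLD 1, 2 and 3 and 37.2, 10.6 and 28.2 TPM in normal 1, 2 and 3. Both showed the order of sets that miR-29a-3p showed. The read counts behind these values were 13834 to 54448 for miR-29a-3p, 745 to 2929 for miR-29c-3p and 126 to 575 for miR-29b-3p, so counting error weighs most on miR-29b-3p.

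In edgeR's quasi-likelihood test over 168 miRNA rows, the log2 fold change of NAFLD over normal was -0.09 (SE 0.46) for miR-29a-3p, 0.20 (SE 0.54) for miR-29b-3p and -0.13 (SE 0.57) for miR-29c-3p. The Benjamini-Hochberg adjusted p from edgeR was 0.986 for each of the 3. Of the 168 rows, 1 (0.595%) was called lower at an adjusted p under 0.05, which was miR-122-5p, and 0 (0%) were called higher. At an unadjusted p under 0.05 edgeR gave 3 rows, all lower, none of them a member. The summed family level was 2939 ± 1782 TPM (SD, n = 3) in the NAFLD group and 3130 ± 1638 TPM (SD, n = 3) in the normal group (two-sided exact permutation test, p = 1). With 3 libraries in each group this test cannot give a p below 0.1. Leaving out 1 library at a time moved the log2 fold change of miR-29a-3p from -0.71 (without NAFLD 1) to 0.15 (without NAFLD 2), that of miR-29b-3p from -0.43 (without NAFLD 1) to 0.58 (without normal 1), and that of miR-29c-3p from -0.81 (without NAFLD 1) to 0.13 (without NAFLD 2).

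The difference between the sets of libraries was larger than that between the groups. The family sum was 2.598 times as high in the low-rate as in the high-rate libraries, and the sets did not overlap for any member. Of 158 miRNAs with a mean of at least 1 TPM, 69 (43.7%) likewise had all low-rate above all high-rate libraries, and 0 the other way. In an edgeR fit with both group and set, the set term on the log2 scale was 1.55 (SE 0.15, adjusted p = 1.04e-05) for miR-29a-3p, 1.51 (SE 0.25, adjusted p = 0.000515) for miR-29b-3p and 1.60 (SE 0.21, adjusted p = 9.07e-05) for miR-29c-3p. The set term was called for 57 of 168 rows (33.9%), all higher in the low-rate libraries, and its median over all rows was 0.63. The set terms of all 3 members were above that median.

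**Figure D1:**
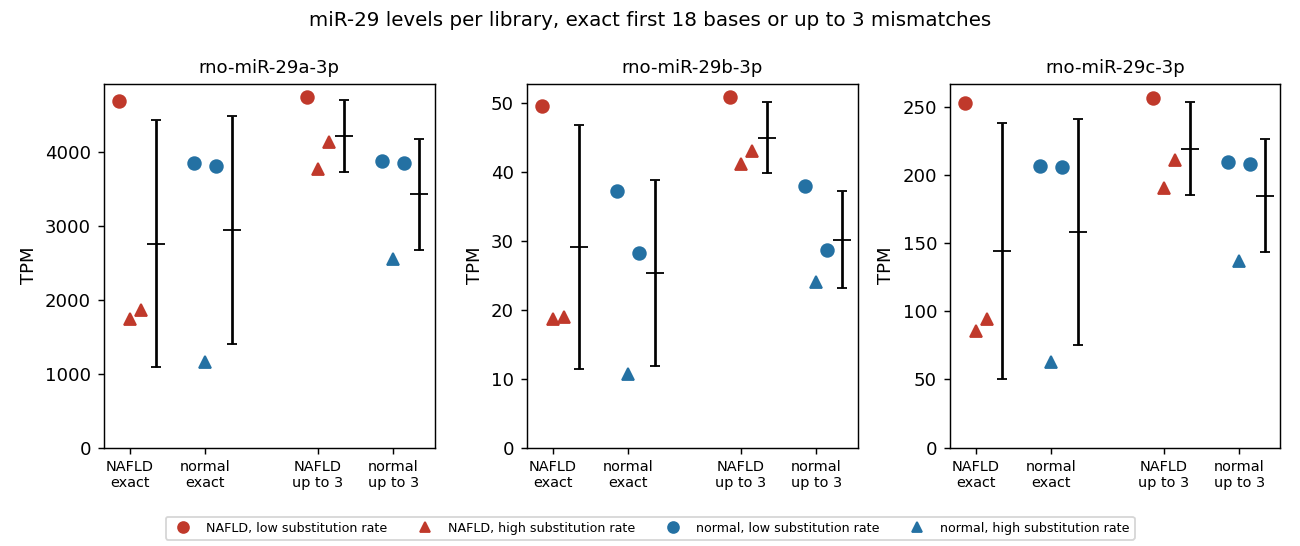
TPM of miR-29a-3p, miR-29b-3p and miR-29c-3p (vertical axes, linear from 0) in each library, counted by exact first 18 bases or with up to 3 mismatches. Each point is a library, circles are low-rate and triangles high-rate libraries, and bars give the mean and SD of 3 libraries. By exact starts the triangles lie below all circles in every panel, and with up to 3 mismatches the 3 NAFLD libraries of miR-29b-3p lie at 41.1 to 50.8 TPM, above the normal libraries at 24.0 to 37.9 TPM.

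In the high-rate libraries, many reads differed from a member by a substitution at a few fixed positions, among them positions 3, 4, 5 and 8 of the seed. Reads 1 substitution away from miR-29a-3p equalled 77.3%, 80.3% and 78.9% of its exact-start reads in NAFLD 2, NAFLD 3 and normal 2. In NAFLD 1, normal 1 and normal 3 they equalled 0.871%, 0.702% and 0.823%. The leading change in the high-rate libraries was A8C, at the last base of the seed, with 27.6% to 30.4% of the exact-start reads against 0.0022% to 0.011% in the low-rate libraries. The tags of miR-29a-3p of reference length are given without a substitution and with each of the 4 leading ones, the substituted base in capitals, since these reads are lost to an exact match.
no substitution: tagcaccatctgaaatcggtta
A8C: tagcaccCtctgaaatcggtta
C4A: tagAaccatctgaaatcggtta
A14C: tagcaccatctgaCatcggtta
A5C: tagcCccatctgaaatcggtta
The unsubstituted tag had 43631, 15913 and 17117 reads in NAFLD 1, 2 and 3 and 35322, 10933 and 36082 reads in normal 1, 2 and 3. The A8C tag had 6, 4384 and 5172 reads in the NAFLD group and 1, 3028 and 1 reads in the normal group. It was thus among the main miR-29 tags in the 3 high-rate libraries and close to absent in the others, in both groups.

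C4A gave 13.2% to 14.6% of the exact-start reads of miR-29a-3p in the high-rate libraries, A5C 12.0% to 12.3%, A14C 11.7% to 12.7%, A15C 3.91% to 5.35% and G3T 2.62% to 2.93%. In the low-rate libraries each of these was at most 0.0716%. The other members carried the same changes. A8C gave 33.6% to 38.1% for miR-29b-3p and 27.5% to 29.4% for miR-29c-3p in the high-rate libraries, with 0 such reads in the low-rate libraries for either. Of the 5 leading positions in all 3 members, 4 change an A to a C.

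**Figure D2:**
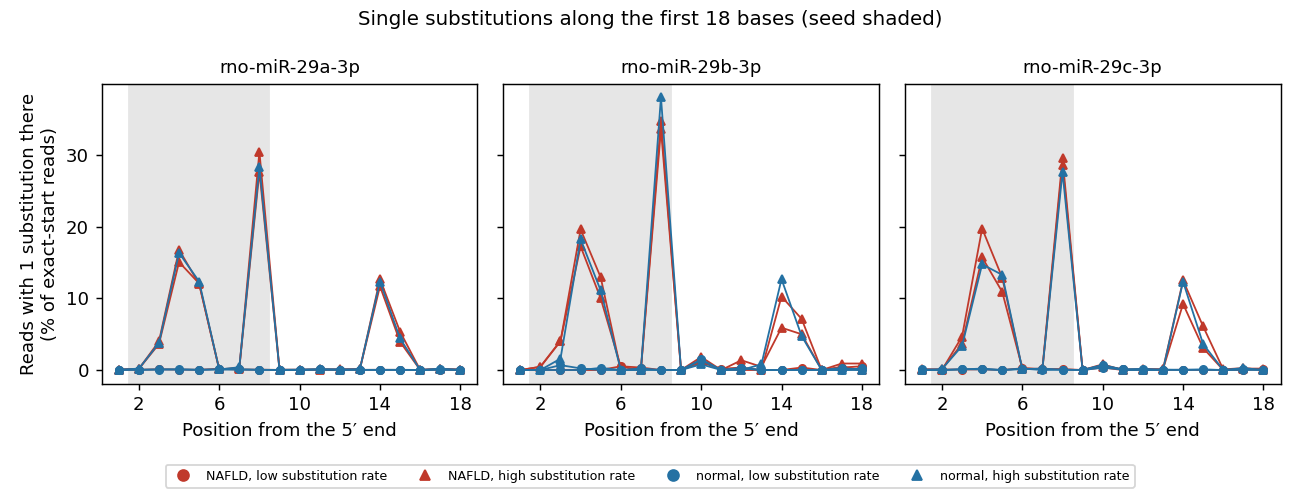
Reads with a single substitution at each of the first 18 positions (horizontal axis, from the 5′ end), as a percent of the exact-start reads of the member (vertical axis), 1 line per library, with the seed shaded. The high-rate libraries of both groups peak at positions 4, 5, 8 and 14 in all 3 members, and the low-rate libraries lie near 0 throughout. Substitutions that give the start of another mature miRNA are left out.

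The single-base difference between miR-29a-3p and miR-29c-3p did not follow this pattern. miR-29c-3p, at C10T from miR-29a-3p, held 5.38%, 4.93% and 5.07% of the reads of miR-29a-3p in NAFLD 1, 2 and 3 and 5.36%, 5.39% and 5.39% in normal 1, 2 and 3. This ratio was alike in the low-rate and the high-rate libraries. The other substitutions at position 10 reached at most 0.0328%, and C-to-T changes at other positions at most 0.105% in the low-rate and 0.477% in the high-rate libraries.

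Allowing mismatches brought the libraries of the 2 sets closer and turned the direction of miR-29a-3p and miR-29c-3p. The family sum in NAFLD 1, 2 and 3 went from 4995, 1841 and 1980 TPM by exact starts to 5058, 4011 and 4401 TPM with up to 3 mismatches. In normal 1, 2 and 3 it went from 4102, 1239 and 4048 TPM to 4136, 2721 and 4088 TPM. The group means were then 4490 ± 529 TPM and 3648 ± 803 TPM (SD, n = 3 each), a ratio of 1.23 (two-sided exact permutation test, p = 0.3), with NAFLD 2 below normal 1 and normal 3. A 4th mismatch added little, with means of 4506 and 3653 TPM. With up to 3 mismatches the set term of edgeR was 0.43 for miR-29a-3p (adjusted p = 0.355), 0.37 for miR-29b-3p (adjusted p = 0.895) and 0.48 for miR-29c-3p (adjusted p = 0.705), on the log2 scale with low over high. It was called for 0 of 182 rows (0%), with 11 rows (6.04%), miR-29a-3p and miR-29c-3p among them, at an unadjusted p under 0.05 in edgeR, and its median over all rows was 0.20.

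**Figure D3:**
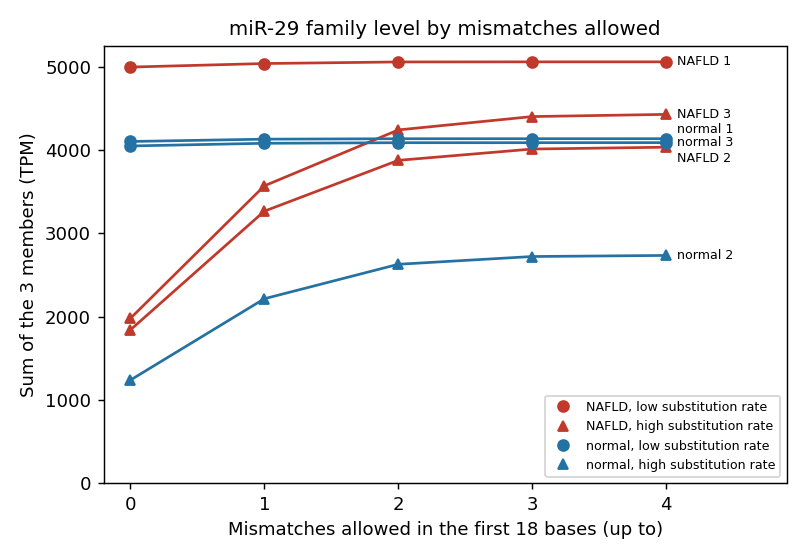
Summed TPM of the 3 members (vertical axis) by the number of mismatches allowed in the first 18 bases (horizontal axis), 1 line per library. The 3 high-rate libraries (triangles) climb from 1239 to 1980 TPM at 0 mismatches to 2721 to 4401 TPM at up to 3, while the low-rate libraries stay at 4048 to 5058 TPM.

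With up to 3 mismatches edgeR gave a log2 fold change of NAFLD over normal of 0.30 (SE 0.18, adjusted p = 0.524) for miR-29a-3p, 0.58 (SE 0.25, unadjusted p = 0.0372, adjusted p = 0.376) for miR-29b-3p and 0.25 (SE 0.23, adjusted p = 0.747) for miR-29c-3p. None was called, nor was any of the 182 rows (0%). At an unadjusted p under 0.05 edgeR gave 20 rows (11%) higher and 3 (1.65%) lower, with miR-29b-3p among the higher ones. The median over all rows was 0.20, close to the values of miR-29a-3p and miR-29c-3p. With TMM factors, which centre most rows near 0, the log2 fold changes with up to 3 mismatches were 0.14, 0.42 and 0.09 for miR-29a-3p, miR-29b-3p and miR-29c-3p. As a percent of the miRNA reads other than miR-122-5p, the family held 1.54%, 1.23% and 1.23% in NAFLD 1, 2 and 3 and 1.32%, 0.934% and 1.27% in normal 1, 2 and 3 (two-sided exact permutation test, p = 0.6).

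Within each set, every NAFLD library was above every normal one for each member, by exact starts and with up to 3 mismatches. By exact starts the ratio of NAFLD to normal was 1.22 for miR-29a-3p, 1.52 for miR-29b-3p and 1.22 for miR-29c-3p in the low-rate set, which holds 1 NAFLD and 2 normal libraries. In the high-rate set, with 2 NAFLD libraries and 1 normal library, it was 1.55, 1.77 and 1.44. These sets are too small for a test. Of 158 miRNAs with a mean of at least 1 TPM, 42 (26.6%) were likewise above within both sets, and with up to 3 mismatches 50 of 178 (28.1%).
With the set as a covariate, the log2 fold change from edgeR by exact starts was 0.46 (SE 0.15, adjusted p = 0.142) for miR-29a-3p, 0.71 (SE 0.25, adjusted p = 0.213) for miR-29b-3p and 0.41 (SE 0.20, adjusted p = 0.363) for miR-29c-3p. None was called. The median over all 168 rows in this fit was 0.24, and edgeR's unadjusted p was under 0.05 for 21 rows (12.5%) that were higher and 3 (1.79%) that were lower. Among the higher ones were miR-29a-3p and miR-29b-3p, with an edgeR p of 0.00802 and 0.0139 before adjustment. With up to 3 mismatches and the covariate the values were 0.46 (adjusted p = 0.0920), 0.71 (adjusted p = 0.169) and 0.43 (adjusted p = 0.342) in edgeR. There the unadjusted p was under 0.05 for 26 rows (14.3%) that were higher, and for 3 (1.65%) that were lower, and 1 (0.549%) was called, lower.

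The members were among the miRNAs with the most mismatched reads. In the high-rate libraries, the share of reads with 1 to 3 mismatches was 54.5% for miR-29a-3p, 55.4% for miR-29b-3p and 54.7% for miR-29c-3p, against a median of 34.98% over 87 miRNAs. They ranked 7th, 5th and 6th. In the low-rate libraries the shares were 0.976%, 1.88% and 1.34%, and the median was 1.36%. The 28 miRNAs with an A at position 8, the members included, had shares of 31.5% to 82.7% in the high-rate libraries with a median of 47.4%, and the 59 with another base there had a median of 23.1%. The 82.7% belongs to miR-30a-5p, which had a share of 68.1% in the low-rate libraries too. An exact start thus counts a smaller part of a member's reads in a high-rate than in a low-rate library.

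**Figure D4:**
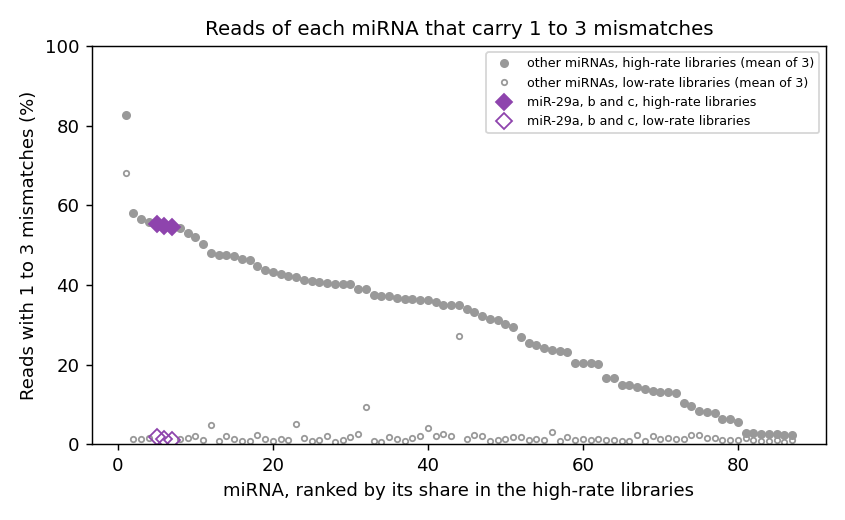
Percent of the reads of each of 87 miRNAs that carry 1 to 3 mismatches (vertical axis), ranked by the mean of the 3 high-rate libraries (horizontal axis). Filled points are high-rate and open points low-rate means, and diamonds are the 3 members. The members lie at 54.5% to 55.4% in the high-rate libraries and at 0.976% to 1.88% in the low-rate ones.

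The make-up of the family was nearly the same in every library. miR-29a-3p made up 93.95% to 94.33% of the family reads by exact starts. It differed between the groups by 0.065 percentage points (two-sided exact permutation test, p = 0.7). miR-29c-3p made up 5.05%, 4.65% and 4.78% in the NAFLD group and 5.04%, 5.07% and 5.08% in the normal group (exact permutation p = 0.2), and the groups overlapped.
miR-29b-3p made up 0.992%, 1.02% and 0.958% of the family in NAFLD 1, 2 and 3 and 0.907%, 0.857% and 0.697% in normal 1, 2 and 3. All NAFLD libraries were above all normal ones, with means of 0.989% ± 0.029 and 0.820% ± 0.110 (SD, n = 3 each). The permutation p (exact, two-sided) was 0.1 and 0.35 after adjustment over the 35 measures of level, make-up and read ends given this test, of which 10 did not overlap between the groups. Several of the 35 repeat others, such as the reference end and the reference sequence, or the share of miR-29b-3p and the ratios to it. The 95% Wilson intervals of the nearest libraries overlapped, at 0.841% to 1.09% in NAFLD 3 and 0.826% to 0.995% in normal 1, whereas that of normal 3, at 0.626% to 0.775%, lay below those of all 3 NAFLD libraries. With up to 3 mismatches the shares were 1.00% ± 0.02 and 0.833% ± 0.116 (SD, n = 3 each), again without overlap.

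The TPM of miR-29b-3p with up to 3 mismatches also did not overlap between the groups. It was 50.8, 41.1 and 43.0 TPM in NAFLD 1, 2 and 3 and 37.9, 24.0 and 28.6 TPM in normal 1, 2 and 3. The means were 44.9 ± 5.13 and 30.2 ± 7.06 TPM (SD, n = 3 each), a ratio of 1.49 (two-sided exact permutation test, p = 0.1). Of 178 miRNAs with a mean of at least 1 TPM counted in this way, 22 (12.4%) had all NAFLD libraries above all normal ones and 5 (2.81%) had all below. By exact starts the miR-29b-3p groups overlapped, and 3 of 158 miRNAs (1.9%) had all NAFLD libraries above and 2 (1.27%) all below.

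**Figure D5:**
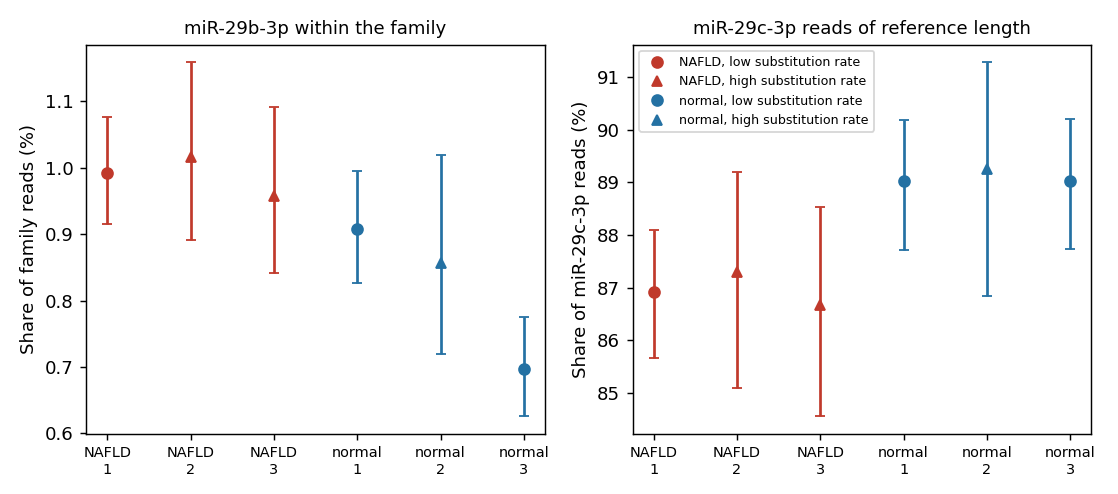
Left, miR-29b-3p as a percent of the family reads, and right, reads of reference length as a percent of the miR-29c-3p reads, in each library (exact starts). Points are libraries and bars are 95% Wilson intervals, which cover counting error only, and neither vertical axis starts at 0. In the left panel the NAFLD libraries lie at 0.958% to 1.02% and the normal ones at 0.697% to 0.907%, and in the right panel the NAFLD libraries lie at 86.7% to 87.3% and the normal ones at 89.0% to 89.3%.

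The reads of each member also differed at the 3′ end, where nucleotides are trimmed or added after cutting. miR-29a-3p occurred as 130 tags and its 5 most abundant ones held 98.5% of its reads. They are given with bases that the hairpin does not encode in capitals.
reference end: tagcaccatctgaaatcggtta
end with T in place of A: tagcaccatctgaaatcggttT
shorter by 1 nt: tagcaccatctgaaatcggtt
longer by an encoded T: tagcaccatctgaaatcggttat
longer by an A: tagcaccatctgaaatcggttaA
The reference tag held 78.8% of the miR-29a-3p reads over all libraries, and the others held 7.69%, 7.21%, 3.10% and 1.73% in this order. Reads of the reference length, 22 nt, made up 87.6%, 86.5% and 86.6% in NAFLD 1, 2 and 3 and 86.2%, 87.4% and 88.2% in normal 1, 2 and 3. The groups overlapped (two-sided exact permutation test, p = 0.7).

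miR-29c-3p had the same 5 kinds of ends, in 44 tags. Reads of its reference length, 22 nt, made up 86.9%, 87.3% and 86.7% in the NAFLD group and 89.0%, 89.3% and 89.0% in the normal group. All NAFLD libraries were lower, by -2.14 percentage points between the means of 87.0% ± 0.310 and 89.1% ± 0.135 (SD, n = 3 each; exact permutation p = 0.1, adjusted over the 35 measures 0.35). The difference was -2.10 points within the low-rate and -2.28 points within the high-rate set. Of 78 miRNAs compared in this way, 8 (10.3%) were lower in all NAFLD libraries and 2 (2.56%) higher. The Wilson intervals of NAFLD 1 (85.7% to 88.1%) and normal 3 (87.7% to 90.2%) overlapped.

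miR-29b-3p was less uniform, with 45 tags. Its reference tag of 23 nt held 57.7% of its reads, the tag shorter by 1 nt 19.8%, and the tag longer by a T 13.4%. Reads of the reference length made up 60.0%, 55.5% and 57.1% in NAFLD 1, 2 and 3 and 62.8%, 69.0% and 54.6% in normal 1, 2 and 3 (two-sided exact permutation test, p = 0.4). The normal group held both the highest and the lowest value.
The added T is the base that follows miR-29b-3p in Mir29b2, whereas in Mir29b1 a C follows. Over all libraries 257 reads continued the reference sequence with T and stopped there, 1 with C, 45 with A and 0 with G. The T tag was thus 23.2% as frequent as the reference tag, compared with 3.93% for miR-29a-3p and 3.89% for miR-29c-3p, whose hairpins also encode a T there. The T reads numbered 76, 32 and 38 in NAFLD 1, 2 and 3 and 56, 15 and 40 in normal 1, 2 and 3. A T may also be added after cutting, so these reads do not count the molecules from Mir29b2.

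The 5′ end, which sets the seed, was more uniform than the 3′ end. Of the miR-29a-3p reads with exact bases, 99.1% began at the reference base and 0.843% began 1 base upstream. Reads that began 1 base upstream of miR-29b-3p or miR-29c-3p, whose first 18 bases are then the same, numbered 26 in all. The share of miR-29a-3p reads with a shifted start was 0.762%, 1.21% and 1.14% in the NAFLD group and 0.790%, 1.33% and 0.688% in the normal group, higher in all high-rate than in all low-rate libraries.

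The other arms of the hairpins, which are mostly degraded once the mature strand is chosen, were close to absent. miR-29a-5p had 8, 5 and 7 reads in NAFLD 1, 2 and 3 and 13, 7 and 4 in normal 1, 2 and 3, or 1 read for 4586 reads of miR-29a-3p. miR-29c-5p had 5, 2 and 4 reads and 7, 3 and 7 reads, or 1 for 382 reads of miR-29c-3p. miR-29b-5p, from Mir29b2, had 4 reads in all. miR-29b-1-5p, from Mir29b1, had 0 reads in every library, where a count of 0 allows up to 3 reads, or 0.253 to 0.259 TPM per library. The members were thus read almost wholly from the 3′ arm in both groups.

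The pattern of miR-29a-3p over the 6 libraries was nearest to that of miR-29c-3p among 86 miRNAs with a mean of at least 10 TPM. Their root mean square difference, on log2(TPM + 1) centred per miRNA, was 0.05, against a median of 0.49 over all compared. The next nearest to miR-29a-3p were miR-26b-5p and miR-152-3p, each at 0.15. miR-29b-3p was nearest to miR-130a-3p (0.14), miR-191a-5p (0.16) and miR-152-3p (0.17), with miR-29a-3p in rank 4. For miR-29c-3p, miR-497-5p (0.16) and miR-31a-5p (0.16) followed miR-29a-3p. miR-29b-3p ranked 7th for miR-29a-3p and 9th for miR-29c-3p. In each of these miRNAs the 3 low-rate libraries were above the 3 high-rate ones. Each also has an A at position 8. Their shares of reads with 1 to 3 mismatches in the high-rate libraries were 37.5% to 55.9%, against the median of 34.98%. Whether the likeness by exact starts follows the loss of such reads was not tested. With up to 3 mismatches, miR-29a-3p and miR-29c-3p were again nearest to each other of 98 compared, at 0.04. They were followed by miR-126a-5p for miR-29a-3p and by miR-26b-5p for miR-29c-3p. There miR-29b-3p ranked 20th for miR-29a-3p and 28th for miR-29c-3p, and was itself nearest to miR-191a-5p (0.15).

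Other miRNAs with a known part in liver fibrosis were examined as a list. Of 10 miRNAs known to promote fibrosis, all were tested, in 9 rows because miR-27a-3p and miR-27b-3p have the same 18-base start. By exact starts none was called by edgeR in either direction, where 0.595% of all rows were called lower, and none had an unadjusted p under 0.05. The log2 fold changes ran from -0.27 to 0.51, 7 of 9 rows above 0, with a median of 0.17 against 0.02 over all rows. Again none was called with up to 3 mismatches, but 8 of 9 rows were above 0 with a median of 0.34 against 0.20 over all rows. There miR-199a-3p (0.60), miR-181b-5p (0.69) and miR-214-3p (0.72) were higher at an unadjusted edgeR p of 0.0130, 0.0171 and 0.0363, with edgeR adjusted p from 0.295 to 0.376. The share of all rows higher at an unadjusted p under 0.05 was 11% in that fit. By exact starts with the set as covariate, miR-199a-3p and miR-181b-5p were higher at an unadjusted edgeR p of 0.00713 and 0.0376, and none was called. miR-199a-3p, a miRNA of stellate cells and fibroblasts, had 423 ± 20.4 TPM in the NAFLD group and 296 ± 87.0 TPM in the normal group (SD, n = 3 each; log2 fold change 0.51, SE 0.38, edgeR adjusted p = 0.986). miR-181b-5p had a log2 fold change of 0.46 (SE 0.42), and miR-221-3p, known to be raised in activated stellate cells, -0.27 (SE 0.44), each with an edgeR adjusted p of 0.986.
Of 8 miRNAs known to restrain fibrosis, 7 were matched and 6 tested, and 1 was called, miR-122-5p, with a log2 fold change of -0.35 (SE 0.04, edgeR adjusted p = 0.000517). It was not called with TMM factors (edgeR adjusted p = 0.0648) or with up to 3 mismatches (edgeR adjusted p = 0.0764). With the set as covariate it was called by exact starts (edgeR adjusted p = 0.0163) and with up to 3 mismatches (edgeR adjusted p = 0.00711). miR-378a-3p had 1161 ± 284 TPM in the NAFLD group and 793 ± 303 TPM in the normal group (SD, n = 3 each; log2 fold change 0.55, SE 0.38), and miR-30c-5p had a log2 fold change of -0.35 (SE 0.46), each with an edgeR adjusted p of 0.986. The median of the 6 was -0.14, with 1 of 6 above 0. Counted with up to 3 mismatches, the median turned to 0.07, with 3 of 6 above 0, and miR-378a-3p had a log2 fold change of 0.80 (unadjusted p = 0.00220, adjusted p = 0.134 in edgeR). With the set as covariate by exact starts it was 0.84 (adjusted p = 0.107 in edgeR).

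Whole liver was sequenced, so fewer cells of a type and less RNA per cell cannot be told apart. The 3 stellate cell and fibroblast markers, miR-199a-3p, miR-199a-5p and miR-214-3p, are also on the list of miRNAs known to promote fibrosis. They summed to 404 to 446 TPM in the NAFLD group and 213 to 390 TPM in the normal group. Nearly all of this sum was miR-199a-3p, with means of 423 and 296 TPM. Of 158 single miRNAs by exact starts, 3 (1.9%) had all NAFLD libraries above all normal ones. The log2 fold changes of the 3 markers were 0.38 to 0.51, or 0.38 to 0.72 with up to 3 mismatches. None was called in either, where 0% of all rows were called higher. The 3 hepatocyte markers summed to 473951 to 481313 TPM and 582734 to 621503 TPM, with 1 of 3 called by exact starts, miR-122-5p. Most of this sum was miR-122-5p, with means of 456551 TPM in the NAFLD group and 581611 TPM in the normal group. miR-122-5p is also on the list of miRNAs known to restrain fibrosis. The log2 fold change was 0.04 for miR-192-5p and -0.04 for miR-194-5p by exact starts. With up to 3 mismatches it was 0.30 (unadjusted p = 0.0312, adjusted p = 0.376 in edgeR) and 0.21 (edgeR adjusted p = 0.770). The 2 endothelial markers summed to 23.5 to 48.4 TPM and 14.7 to 41.1 TPM, and none was called. Of the muscle and mesenchyme, myeloid and erythroid markers, 2, 2 and 2 were tested and none was called. By exact starts 0.595% of all rows were called lower and 0% higher. The log2 fold changes were -0.14 for miR-143-3p, -1.29 for miR-145-5p, 0.31 for miR-223-3p and 0.27 for miR-142-5p. The erythroid miR-451-5p and miR-144-3p had 0.37 and 0.91. With up to 3 mismatches miR-145-5p had -0.83 and miR-144-3p 1.04 (unadjusted p = 0.0130, adjusted p = 0.295 in edgeR). In that fit 11% of all rows were higher at an unadjusted p under 0.05. The 1 lymphoid marker matched, miR-155-5p, was at 0.168 to 0.677 TPM and not tested. The part of these cell types in the miR-29 levels was not tested.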

How the data were processed

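The authors sequenced gel-purified RNA of 18–30 nt on an Illumina HiSeq instrument, removed low-quality reads, adaptor contaminants, poly A reads and short reads, and deposited for each of the 6 libraries the count of reads per tag. These counts are not normalized or filtered for a genome match. The sample labels name the build Rnor_5.0 (rn5), which the deposited tag tables do not use. The deposited log of the cleaning steps gives counts whose clean reads equal the table totals.

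Tags were assigned by their first 18 bases to mature rat miRNAs of RefSeq (GRCr8), 693 names in 682 rows, and TPM was formed from the counts with the clean reads of each library as total and a factor of 1000000. For mismatches, a tag start within the allowed number of substitutions of a single nearest miRNA was added to it. Rows that passed filterByExpr entered edgeR's quasi-likelihood test (version 4.0.16, R 4.3.3), with total clean reads as library size and a Benjamini-Hochberg threshold of 0.05. SEs were obtained as |log2 fold change| over the root of F. Single values were compared by two-sided exact permutation tests (Python 3.11.15). Alternatives used DESeq2 1.42.0, and limma 3.58.1 with a pseudocount of 1 TPM. The fit was also run on simulated counts whose spread was set in advance. That run does not show how the fit performs at the spread of these libraries. The sets were divided at the largest gap in the substitution rate at position 4 over 50 abundant tags.

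The members and lists were chosen with earlier results of these data known, as was the division into sets. The list members named with values are the 3 with the smallest p in each direction over both fibrosis lists. The likeness rule takes the 3 nearest miRNAs with a mean of at least 10 TPM, and within a member the 5 most abundant tags are described. p-values measure the spread between these libraries, 1 per rat. Intervals and floors account for counting error alone, because PCR copies of a molecule are counted as reads. miR-150-5p and miR-486 were not matched, miR-133a-3p, miR-142-3p and miR-155-5p were matched but too low to test.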

Additional observations from a re-analysis of the deposited data

How the results depend on the processing

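Of the fits of NAFLD over normal by exact starts, those with TMM factors, DESeq2, limma, no filter on low counts, every 18-base start as a row, the first 20 bases or the exact mature sequence kept the direction of all 3 members, and in every fit run their adjusted p was at least 0.0920. The log2 fold change of miR-29a-3p turned to 0.46 with the set as covariate, 0.19 with 1 mismatch allowed, 0.28 with up to 2 and 0.30 with up to 3 mismatches, 0.46 with up to 3 and the covariate, and 0.14 with up to 3 and TMM factors. That of miR-29c-3p turned to 0.41, 0.13, 0.23, 0.25, 0.43 and 0.085 in the same order. miR-29b-3p was above 0 in every fit on all 6 libraries, from 0.15 to 0.71. The difference in summed family TPM, -191 by exact starts, was 483, 774 and 842 with 1, up to 2 and up to 3 mismatches. It was 1543 with up to 3 per 1000000 miRNA reads other than miR-122-5p, and 276 by exact starts per 1000000 miRNA reads. Within the low-rate and the high-rate set it was 920 and 672 by exact starts, and 946 and 1485 with up to 3 mismatches. In 2 other settings it kept its direction. By exact starts the family percent of miRNA reads other than miR-122-5p differed by -0.100 percentage points. The cause of the substitutions was not tested. The difference in the share of miR-29a-3p in the family, 0.065 points, was -0.18 points in the low-rate and 0.22 points in the high-rate set and 0.30 points by exact mature sequence. Those in the share of reference length, -0.40 points for miR-29a-3p and -4.63 points for miR-29b-3p, were 0.35 and 1.28 points in the low-rate and -0.89 and -12.7 points in the high-rate set. The count of miRNAs called was 0 with TMM factors, with every 18-base start as a row, with up to 2 mismatches, with up to 3, and with up to 3 and TMM factors. In the same order, 12 of 168, 998 of 10516, 18 of 178, 23 of 182 and 22 of 182 rows had an unadjusted p under 0.05 in edgeR. Of the 998, 996 were higher, in a fit whose median log2 fold change was 1.11. DESeq2 called 1 of 368 rows. The settings with more than 1 mismatch and that without miR-122-5p were chosen after seeing the data.

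Leaving out 1 library at a time gave -0.71 to 0.15 for miR-29a-3p, -0.43 to 0.58 for miR-29b-3p, -0.81 to 0.13 for miR-29c-3p, and -1219 to 358 TPM for the family. A group then has 2 libraries that carry its spread. The share of miR-29a-3p ran from -0.010 to 0.18 points, those of reference length from -0.93 to 0.053 points for miR-29a-3p, -8.40 to -1.19 for miR-29b-3p and -2.31 to -1.999 for miR-29c-3p, and the count of called miRNAs from 1 to 2, with 2 without NAFLD 1. Same-numbered libraries correlated in their deviations by 0.15, 0.34 and -0.53. NAFLD 1 and normal 1 are both low-rate, NAFLD 2 and normal 2 both high-rate, and NAFLD 3 and normal 3 differ in set. These values therefore cannot show whether the replicate numbers pair the rats. In a fit with a replicate block the log2 fold changes were -0.05, 0.22 and -0.12 for miR-29a-3p, miR-29b-3p and miR-29c-3p, and 1 miRNA was called.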
